A study of Homo sapiens with 9 samples.

Results

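The aminoacyl-tRNA synthetases analysed here were 35 of the 61552 genes in the processed files, 19 cytosolic enzymes (symbols ending in 1, plus FARSA and FARSB) and 16 mitochondrial enzymes (symbols ending in 2). Their rows were taken by gene symbol, and all 35 passed the filter on low values. RNA-seq was performed on MDA-MB-231, an established human triple-negative breast cancer (TNBC) cell line of wild-type genotype, after 24 h with 0 mM, 10 mM or 20 mM 2-deoxy-D-glucose (2-DG), with 3 libraries per dose. 2-DG is a glucose analog that enters the cell as glucose does and blocks glycolysis, and the 0 mM control received phosphate-buffered saline. The study's methods call the 3 libraries of a dose sample replicates, each extracted for RNA, without saying whether they were separate cultures, so the p-values measure only the spread between these libraries, which may be technical.

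Each synthetase joins one amino acid to its tRNA, and the charged tRNAs then feed the ribosome. Human cells hold one set of enzymes for the cytosol and another, also encoded in the nucleus, for the mitochondrial ribosome, although GARS1 and KARS1 serve both compartments. Several genes of the cytosolic set are known targets of ATF4, the transcription factor of the integrated stress response, which binds a composite element shared with C/EBP factors.

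The deposited values were FPKM, in which the reads of a gene are divided by its length and by the total of its library. Whole reads could be recovered from them, with totals from 30974968 to 40843638 per library. One read on a gene of 1 kb was thus worth between 0.0245 and 0.0323 FPKM. RNA of the mitochondrial genome made up between 25.7% and 31.8% of the summed FPKM of a library, with the highest share in 10 mM 2-DG replicate 3. In the control the mean of VIM was 285 FPKM and that of KRT18 150 FPKM, ESR1 and PGR were at 0.00340 and 0.0140 FPKM, and the leukocyte marker PTPRC was at 0.0297 FPKM. In bulk RNA, less RNA per cell and fewer cells with a given RNA cannot be told apart.

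These sequences are shown because 8 members share a promoter element. They are 30-base windows around the ATF4 composite element, searched as TGATGNAA on both strands of RefSeq promoters (GRCh38.p14, from 250 bases before to 50 after the transcription start). Windows were found for 30 of the 35 members. Those of AARS2, LARS1, VARS1, VARS2 and YARS1 were not analysed here. In each line the strand of the gene is shown 5′ to 3′ and the capitals mark the element, which reads TTNCATCA where it lies on the opposite strand.
AARS1, chr16:70289675-70289704, minus strand: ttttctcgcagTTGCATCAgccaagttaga
CARS1, chr11:3057407-3057436, minus strand: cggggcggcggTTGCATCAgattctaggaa
GARS1, chr7:30594834-30594863, plus strand: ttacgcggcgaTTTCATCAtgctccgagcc
IARS1, chr9:92293692-92293721, minus strand: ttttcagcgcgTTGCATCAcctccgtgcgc
MARS1, chr12:57488053-57488082, plus strand: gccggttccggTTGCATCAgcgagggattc
NARS1, chr18:57621804-57621833, minus strand: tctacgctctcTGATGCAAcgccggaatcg
TARS1, chr5:33440956-33440985, plus strand: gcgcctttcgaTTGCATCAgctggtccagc
YARS2, chr12:32756076-32756105, minus strand: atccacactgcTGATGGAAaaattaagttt
The windows of AARS1, CARS1, IARS1, MARS1, NARS1 and TARS1 held the form with a C at the free position (TGATGCAA), whereas GARS1 and YARS2 held another base there. In CARS1, MARS1, IARS1, TARS1 and NARS1 the first base of the match lay at positions -2, -4, -13, 3 and 15 from the start, in GARS1 at -33, and in AARS1 and YARS2 farther upstream at -187 and -197.

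The 7 cytosolic genes in these lines were all called higher with 2-DG, as was YARS2, the 1 mitochondrial gene called higher at both doses. TGATGNAA was present in 7 of the 16 cytosolic promoters with a window and in 1 of the 14 mitochondrial ones, against 4.46% of the 27305 genes with a RefSeq promoter. Of the cytosolic genes with a window, 7 of the 10 called higher at 20 mM 2-DG held it, 0 of the 2 called lower (FARSB and QARS1) and 0 of the 4 not called. Across all genes tested that had a window, it was present in 4.0% of the 1749 called higher, 2.01% of the 2743 called lower and 2.86% of the 6843 not called. TGATGCAA, the form in 6 members, occurred in 1.08% of all genes. WARS1 and SARS1, which rose most of the 35, held no match in their windows, nor did EPRS1.

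**Figure D1:**
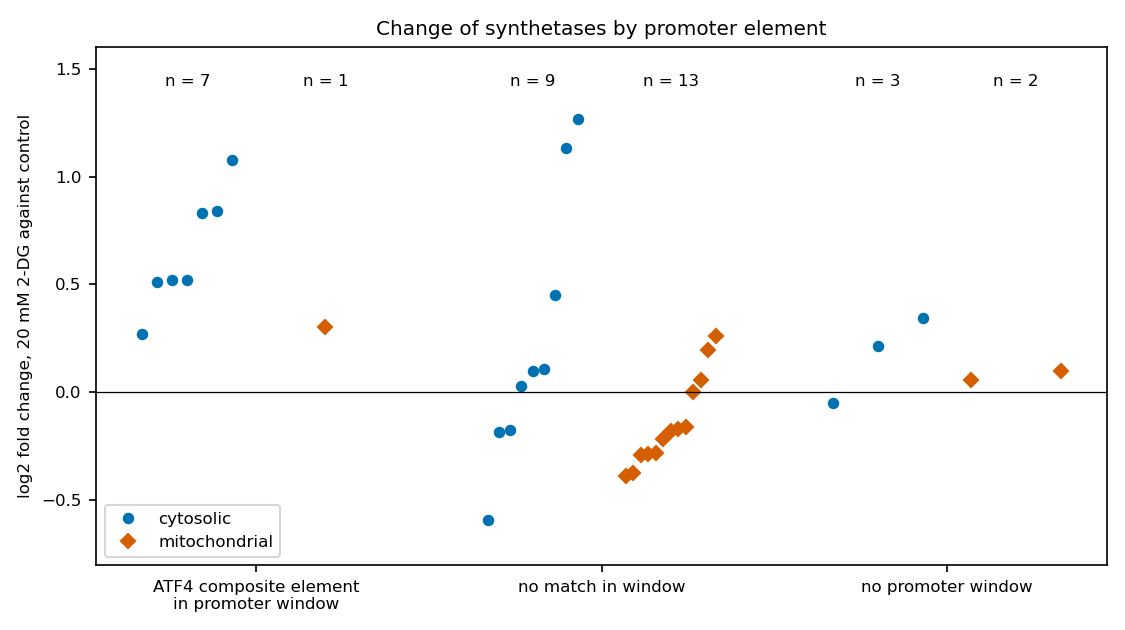
Log2 fold change of each member at 20 mM 2-DG against control (y axis, from log2(FPKM + 1)), split on the x axis by whether TGATGNAA was found in its promoter window; blue circles are cytosolic and orange diamonds mitochondrial synthetases. The 8 members with a match lie above 0, but so do members without one, including WARS1 at 1.27 and SARS1 at 1.13.

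The ER stress element, CCAAT and CCACG with 9 free bases between them, was found in 0 of the 30 promoters and in 0.0916% of all genes. Of the genes tested with a window, it lay in 0.743% of those called higher, 0.0% of those called lower and 0.0438% of those not called. With an element this rare, 0 of 30 does not set the members apart. NRF1 is a factor of nuclear genes for mitochondrial proteins, and its site, GCGCA and GCGC around 1 free base, lay in 3 of the 16 cytosolic windows (SARS1, TARS1 and FARSB) and in 3 of the 14 mitochondrial windows (IARS2, MARS2 and PARS2), against 6.98% of all genes with a promoter. Among the genes tested the share was higher, at 13.6% of those called higher, 12.0% of those called lower and 13% of those not called. The E-box CACGTG was present in IARS1, CARS2, EARS2 and MARS2 and in 8.77% of all genes, or 15.2%, 10.5% and 12.1% of the genes called higher, called lower and not called. In no member did matches of different elements overlap, apart from TGATGCAA, which is one form of TGATGNAA. A match describes letters in a window and no binding was measured.

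Most cytosolic synthetase mRNAs rose with 2-DG, whereas the mitochondrial ones went both ways. By sign, 7 mitochondrial log2 fold changes were above 0 and 9 below at 20 mM 2-DG, near the split of all genes tested (7648 and 8924). With 10 mM they were 5 and 11, against 7924 and 8648 of all genes. At 20 mM 2-DG, 11 of the 19 cytosolic synthetases were called higher than in the control and 2 lower, at a Benjamini-Hochberg adjusted p under 0.05 in limma's test across 16572 genes. Over all genes tested, 15.4% were called higher and 21.6% lower. Of the 16 mitochondrial synthetases, 1 was called higher and 5 lower. The median log2 fold change was 0.34 in the cytosolic and -0.16 in the mitochondrial set, beside -0.02 over all genes.

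At 10 mM 2-DG the counts were 12 higher and 2 lower of 19 in the cytosolic set, where 12.1% of all genes were called higher and 17.5% lower. In the mitochondrial set 1 was higher and 6 were lower of 16. The medians were 0.36 and -0.17, against -0.01 over all genes. Both doses were compared with the same 3 control libraries, so the comparisons are not independent. The 3 libraries at 10 mM all lay above the controls for 12 of the 19 cytosolic and 4 of the 16 mitochondrial genes (17.8% of all genes), and below them for 3 and 8 (22.7% of all genes). At 20 mM they lay above for 14 and 3 (23.3% of all genes) and below for 3 and 8 (29.9% of all genes).

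**Figure D2:**
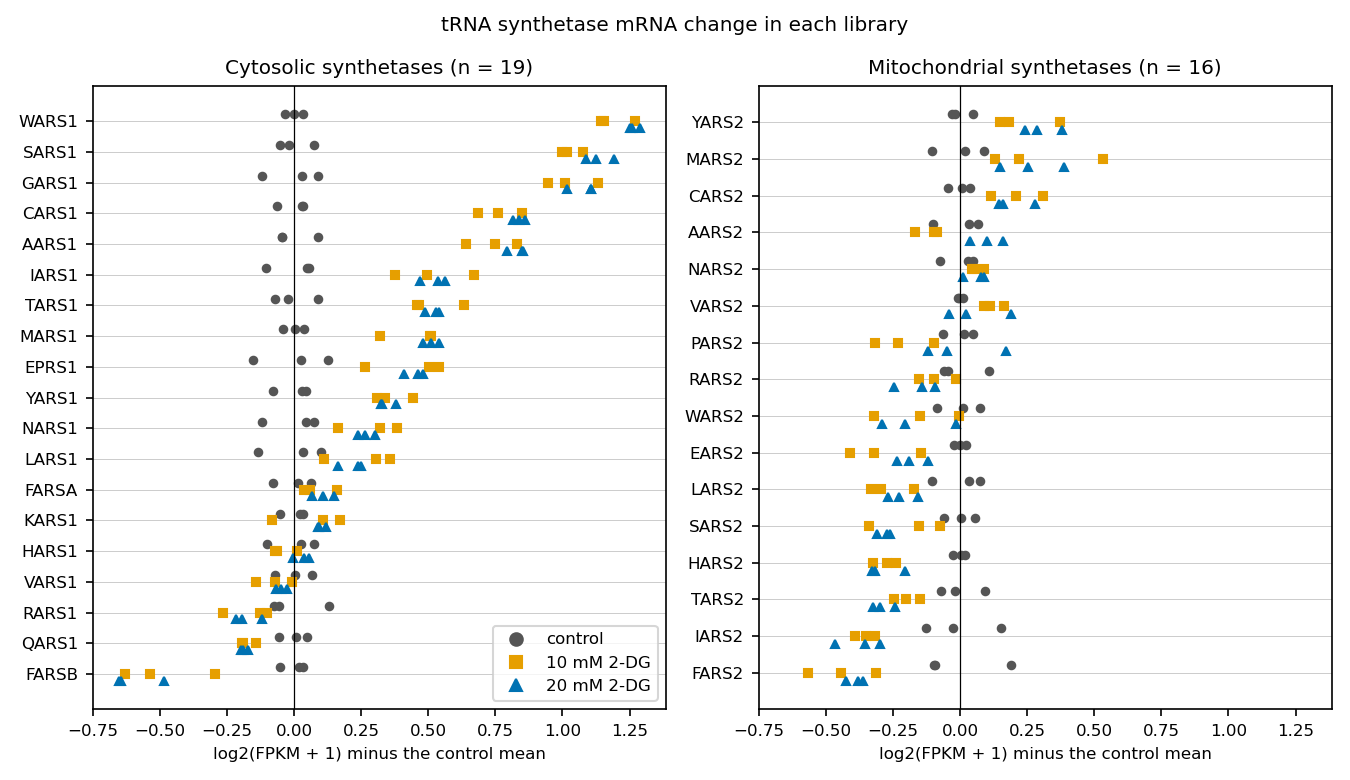
Change of each synthetase in each library, as log2(FPKM + 1) minus the mean of the 3 control libraries (x axis), for the 19 cytosolic (left) and 16 mitochondrial (right) genes; grey circles are control, orange squares 10 mM and blue triangles 20 mM 2-DG. Most cytosolic genes from WARS1 down to LARS1 have all treated libraries right of the controls, whereas the genes at the bottom of the mitochondrial panel lie to the left.

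**Figure D3:**
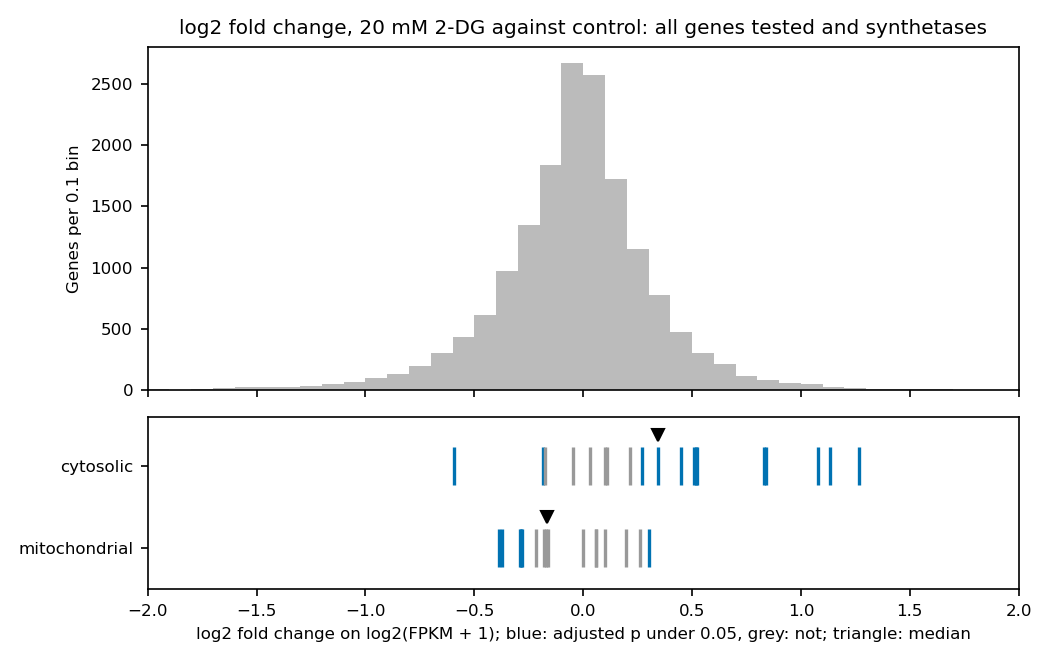
Histogram of the log2 fold change at 20 mM 2-DG against control over all 16572 genes tested (top, genes per bin, axis limited to the range from -2 to 2) and the same value of each synthetase as a tick (bottom), blue where the adjusted p was under 0.05, with a triangle at each set's median. The cytosolic median of 0.34 lies right of the peak of all genes and the mitochondrial median of -0.16 left of it.

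Summed over the set, the cytosolic synthetases stood at 673 ± 8.27 FPKM (SD, n = 3) in the control, 923 ± 3.95 FPKM (SD, n = 3) at 10 mM and 948 ± 8.82 FPKM (SD, n = 3) at 20 mM 2-DG. The mitochondrial sums were 105 ± 1.25, 92.5 ± 0.739 and 94.0 ± 2.79 FPKM (SD, n = 3 each). In both sets the treated sums lay clear of the control sums, upward for the cytosolic and downward for the mitochondrial genes. IARS2 alone went from a mean of 35.6 FPKM in the control to 27.6 FPKM at 10 mM and 27.2 FPKM at 20 mM. It thus carried most of the fall of the mitochondrial sum, which does not describe the set gene by gene.

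WARS1, SARS1 and GARS1 changed most and were the 3 members past a log2 fold change of 1, which 0.965% of all genes exceeded upward at 20 mM (unadjusted limma p under 0.05) and 0.579% at 10 mM 2-DG. By the same thresholds 0 members were lower, against 1.96% and 1.16% of all genes. WARS1, which charges tRNA with tryptophan and is also known as an interferon-induced gene, was at 42.8, 41.9 and 40.9 FPKM in the control. It reached 102, 93.7 and 94.6 FPKM at 10 mM and 104, 101 and 101 FPKM at 20 mM 2-DG. Every treated library was more than double the highest control. The log2 fold changes were 1.19 (SE 0.053, adjusted p = 9.52e-07 in limma's test) and 1.27 (SE 0.053, adjusted p = 3.42e-07).

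SARS1, which charges serine tRNA and also the selenocysteine tRNA, had control values of 76.4, 69.9 and 71.6 FPKM. With 10 mM 2-DG it was at 146, 154 and 148 FPKM, and with 20 mM at 167, 159 and 155 FPKM. The groups did not overlap, and SARS1 was the most abundant member per length in every group mean. Its log2 fold changes were 1.03 (SE 0.058, adjusted p = 3.17e-06 in limma's test) and 1.13 (SE 0.058, adjusted p = 8.23e-07).

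GARS1 encodes the glycyl-tRNA synthetase of both cytosol and mitochondria. Its control libraries had 19.7, 17.7 and 20.6 FPKM, the 10 mM libraries 38.1, 39.9 and 43.5 FPKM and the 20 mM libraries 42.6, 42.7 and 40.1 FPKM. All treated libraries were far above the controls, while the doses overlapped. The log2 fold changes were 1.03 (SE 0.071, adjusted p = 9.30e-06 in limma's test) and 1.08 (SE 0.071, adjusted p = 3.75e-06).

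CARS1 and AARS1, the cysteine and alanine enzymes, followed. CARS1 was at 14.996, 13.962 and 14.968 FPKM in the control, at 24.1, 27.2 and 25.5 FPKM with 10 mM and at 27.0, 27.4 and 26.5 FPKM with 20 mM 2-DG. Its mean FPKM was 1.75 and 1.84 times the control (log2 fold changes 0.77 and 0.84, adjusted p = 1.77e-05 and 5.82e-06 in limma's test). No treated library of CARS1 came near a control. AARS1 went from 22.3, 20.2 and 20.3 FPKM to 37.98, 35.82 and 33.18 FPKM and to 38.6, 37.0 and 38.5 FPKM. These were 1.70 and 1.81 times the control mean (log2 fold changes 0.74 and 0.83, adjusted p = 3.69e-05 and 1.06e-05 in limma's test), again without overlap.

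TARS1 and IARS1, for threonine and isoleucine, rose by less. TARS1 had 71.2, 68.8 and 77.0 FPKM in the control, 99.7, 100 and 113 FPKM at 10 mM and 105, 102 and 105 FPKM at 20 mM 2-DG. The mean was 1.44 times the control at either dose (log2 fold change 0.52 at both, adjusted p = 0.000350 and 0.000245 in limma's test). IARS1 was at 13.39, 14.98 and 15.10 FPKM, then 23.6, 19.1 and 20.8 FPKM and 20.4, 21.4 and 21.8 FPKM. The treated libraries of both genes were all above the controls, and those of IARS1 spread most at 10 mM. On the log2 scale IARS1 was higher by 0.51 and 0.52 (adjusted p = 0.00126 and 0.000841 in limma's test).

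MARS1 (methionine), EPRS1 (the joined glutamate and proline enzyme), YARS1 (tyrosine) and NARS1 (asparagine) were also called higher at both doses. At 20 mM 2-DG their log2 fold changes were 0.51, 0.45, 0.34 and 0.27, and at 10 mM 0.44, 0.44, 0.36 and 0.29. LARS1, the leucine enzyme, passed narrowly at 10 mM (0.26, adjusted p = 0.04998 in limma's test) and not at 20 mM (0.22, adjusted p = 0.0779). MARS1 shares 13.3% of its annotated exon bases with other genes, 355 of them with DDIT3 on the opposite strand. DDIT3, which encodes the stress factor CHOP, was itself higher by 1.47 on the log2 scale at 20 mM 2-DG. Whether the counting used strand is not given in the sources used here, and the part of such reads in the value of MARS1 was not tested.

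FARSB and QARS1 went the other way from most of the cytosolic set. FARSB, the beta subunit of the phenylalanine enzyme, was at 7.54, 7.12 and 7.63 FPKM in the control, at 4.45, 4.81 and 5.87 FPKM with 10 mM and at 4.36, 5.03 and 4.39 FPKM with 20 mM 2-DG. Every treated library was lower than every control. On the log2 scale FARSB fell by 0.49 (SE 0.097, adjusted p = 0.00461 in limma's test) and by 0.59 (SE 0.097, adjusted p = 0.00112). FARSA, the alpha subunit of the same enzyme, had log2 fold changes of 0.09 and 0.11 (adjusted p = 0.307 and 0.178), with a 95% interval from -0.02 to 0.24 at 20 mM. The subunits of one enzyme thus had intervals that did not overlap, since that of FARSB ran from -0.81 to -0.38.

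QARS1, which charges glutamine tRNA and has no mitochondrial counterpart, was at 66.0, 64.2 and 61.4 FPKM in the control, 55.8, 57.7 and 55.6 FPKM at 10 mM and 55.6, 56.6 and 55.9 FPKM at 20 mM 2-DG. The groups were separate, but the fall was small, with log2 fold changes of -0.18 and -0.19 (adjusted p = 0.0228 and 0.0144 in limma's test). The QARS1 call held in 11 of 15 alternative fits at each dose. With median-ratio scaling it was lost, at -0.14 and -0.13 (adjusted p = 0.125 and 0.130 in limma's test).

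HARS1 showed the smallest change of the cytosolic set at 20 mM. It had 10.4, 10.8 and 9.42 FPKM in the control, 9.69, 10.3 and 9.64 FPKM with 10 mM and 10.5, 10.6 and 10.2 FPKM with 20 mM 2-DG, so the groups overlapped. The 95% interval of its log2 fold change ran from -0.12 to 0.18 at 20 mM. VARS1, KARS1 and RARS1 were not called at either dose, with log2 fold changes at 20 mM of -0.05, 0.10 and -0.18. RARS1, the arginine enzyme, was nevertheless lower in every treated library than in every control, and its unadjusted 95% interval at 20 mM ran from -0.34 to -0.01.

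**Figure D4:**
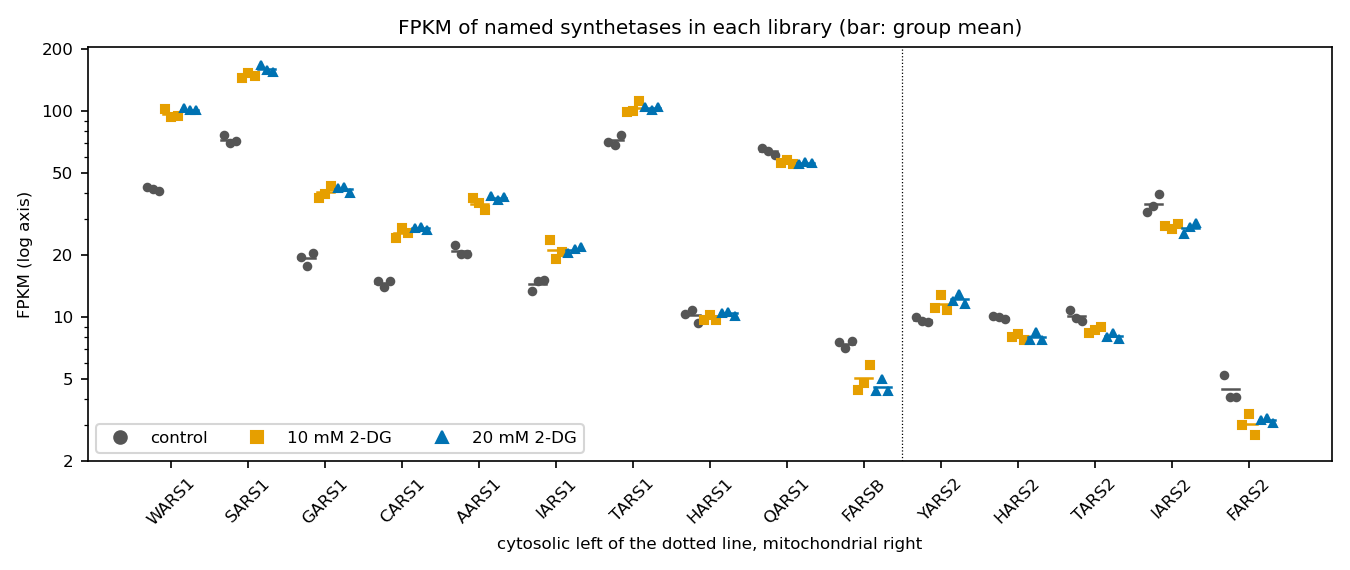
FPKM (log axis) in each library of the 15 synthetases whose values are given library by library, with a bar at each group mean; grey circles are control, orange squares 10 mM and blue triangles 20 mM 2-DG, and the dotted line parts cytosolic from mitochondrial genes. WARS1, SARS1 and GARS1 stand at 2.06 to 2.44 times the control with 2-DG, whereas FARSB, IARS2 and FARS2 stand lower.

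Among the mitochondrial enzymes called lower, FARS2 and IARS2 had the largest changes on log2(FPKM + 1), while by the ratio of mean FPKM SARS2 stood lowest at 20 mM (0.660 times the control, against 0.707 for FARS2 and 0.764 for IARS2). FARS2, the single-chain mitochondrial phenylalanine enzyme, was at 5.21, 4.09 and 4.11 FPKM in the control, 3.01, 3.39 and 2.68 FPKM at 10 mM and 3.18, 3.24 and 3.06 FPKM at 20 mM 2-DG. Control replicate 1 was the highest of the 9 libraries. The log2 fold changes were -0.44 and -0.39 (adjusted p = 0.0108 and 0.0153 in limma's test), and without that library the 20 mM value was -0.29 (adjusted p = 0.0514 in limma's test). Without 20 mM 2-DG replicate 3 it was -0.37 (adjusted p = 0.0525 in limma's test).

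IARS2 was the most abundant mitochondrial member per length, at 32.4, 34.9 and 39.6 FPKM in the control. It was at 27.6, 26.8 and 28.3 FPKM with 10 mM and 25.5, 27.5 and 28.7 FPKM with 20 mM 2-DG. All 6 treated libraries were below the controls. The log2 fold changes were -0.35 and -0.37 (adjusted p = 0.00710 and 0.00408 in limma's test).

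HARS2 had 10.1, 9.97 and 9.74 FPKM in the control, 8.05, 8.27 and 7.74 FPKM at 10 mM and 7.77, 8.48 and 7.71 FPKM at 20 mM 2-DG. The log2 fold change was -0.28 at both doses (adjusted p = 0.00849 and 0.00585 in limma's test). HARS1 and HARS2 lie head to head on chromosome 5 with RefSeq starts 85 bases apart (140691370 and 140691455) on opposite strands. HARS2 was lower in all treated libraries while HARS1 overlapped. They share 437 annotated exon bases.

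TARS2, for threonine, was at 10.8, 9.92 and 9.54 FPKM in the control, then 8.33, 8.64 and 8.99 FPKM at 10 mM and 8.01, 8.36 and 7.85 FPKM at 20 mM 2-DG. All treated libraries were lower, by log2 fold changes of -0.20 (adjusted p = 0.0474 in limma's test) and -0.29 (adjusted p = 0.00733), but the 10 mM call held in 3 of 15 alternative fits. SARS2 was called lower at 20 mM (-0.28, adjusted p = 0.0216 in limma's test) from 70 to 133 recovered reads outside 10 mM 2-DG, and it shares 57.0% of its exon bases with other genes. At about 1 FPKM its change is understated by the pseudocount, and the alternative fits gave values down to -0.59. EARS2 and LARS2 were called lower at 10 mM (-0.29 and -0.27) and not at 20 mM (-0.18 and -0.22).

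YARS2, the mitochondrial tyrosine enzyme, was higher. It was at 10.0, 9.56 and 9.45 FPKM in the control, 11.1, 12.8 and 10.8 FPKM with 10 mM and 12.0, 12.9 and 11.6 FPKM with 20 mM 2-DG. No treated library reached down to the controls. YARS2 was higher by 0.23 (adjusted p = 0.0390 in limma's test) and by 0.30 (adjusted p = 0.00991) on the log2 scale, and the 10 mM call held in 6 of 15 alternative fits. CARS2 and MARS2 also had values above 0 (0.19 and 0.26 at 20 mM) and did not pass the test (adjusted p = 0.0612 and 0.109 in limma's test).

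The other 6 mitochondrial members, AARS2, NARS2, PARS2, RARS2, VARS2 and WARS2, were called at neither dose. At 20 mM their log2 fold changes lay between -0.17 and 0.10 on log2(FPKM + 1). For genes at or under 1 FPKM this scale understates change, and the ratio of mean FPKM was 0.798 for RARS2 and 1.93 for VARS2, with alternative fits down to -0.32 and up to 0.47 on the log2 scale. VARS2 rested on few reads. It had 13, 10 and 10 recovered reads in the control, 30, 30 and 39 at 10 mM and 13, 50 and 4 at 20 mM 2-DG, so the 10 mM libraries were all above the control while the 20 mM libraries spanned it. It shares 21.99% of its exon bases with GTF2H4.

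Between 20 mM and 10 mM 2-DG, 0 of the 35 members and 0.0% of all genes were called in limma's test at an adjusted p under 0.05. At an unadjusted p under 0.05 it was 1 member, AARS2, against 6.87% of all genes. AARS2 was at 5.61, 5.66 and 5.29 FPKM with 10 mM and 6.58, 6.26 and 6.90 FPKM with 20 mM 2-DG, a log2 difference of 0.22 (adjusted p = 0.546 in limma's test). The differences of all members lay between -0.11 and 0.22. For WARS1 the 95% interval of the difference ran from -0.04 to 0.19.

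The same amino acid could be followed in both compartments for 16 pairs of a cytosolic and a mitochondrial gene, with EPRS1 used for glutamate and for proline. In 11 of the 16 pairs the log2 ratio of cytosolic to mitochondrial FPKM was higher in all 6 treated libraries than in all 3 controls. Each of these had p = 0.02381 in an exact two-sided permutation test, the smallest value that 84 splits of 6 and 3 libraries allow, and 3 against 3 libraries cannot go below 0.1. Of single genes, 15.3% lay higher in all 6 treated libraries than in all 3 controls and 20.4% lower. The share over other gene pairs was not computed, so nothing is read from 11 of 16 beyond these pairs. The ratio was higher on average in 15 pairs.

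The ratio of SARS1 to SARS2 lay between 5.90 and 6.26 (log2) in the control and between 7.21 and 7.84 with 2-DG, a difference of 1.59. That of WARS1 to WARS2 differed by 1.46, from 3.38 to 3.62 in the control against 4.69 to 5.22 with 2-DG. On log2(FPKM + 1) the differences were 1.32 for SARS1 to SARS2 and 1.39 for WARS1 to WARS2, so their order depends on the pseudocount. The SARS2 values rest on 69 to 133 reads per library, and SARS2 shares 57.0% of its exon bases with other genes. In the first pair a rise of one gene went with a fall of the other at 20 mM, whereas WARS2 passed the test at neither dose (log2 fold change -0.17 at 20 mM). For isoleucine the difference was 0.92, from between -1.39 and -1.22 in the control to between -0.49 and -0.23 with 2-DG. The sign of this ratio depends on the gene lengths, since IARS1 had more recovered reads than IARS2 in every library (10658 against 4764 in control replicate 1) and a length of 22418 bases behind its FPKM, against 7401 exon bases in GENCODE 29. The difference does not depend on them.

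The pairs for alanine, threonine and glutamate differed by 0.82, 0.80 and 0.78. Those for phenylalanine (FARSA to FARS2), cysteine, proline and leucine differed by 0.63, 0.61, 0.59 and 0.56, and the histidine pair by 0.31. The 5 pairs whose libraries overlapped were methionine (0.14), asparagine (0.13), tyrosine (0.08), arginine (0.07) and valine (-1.02), the last resting on the few reads of VARS2. In the tyrosine pair both genes rose.

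**Figure D5:**
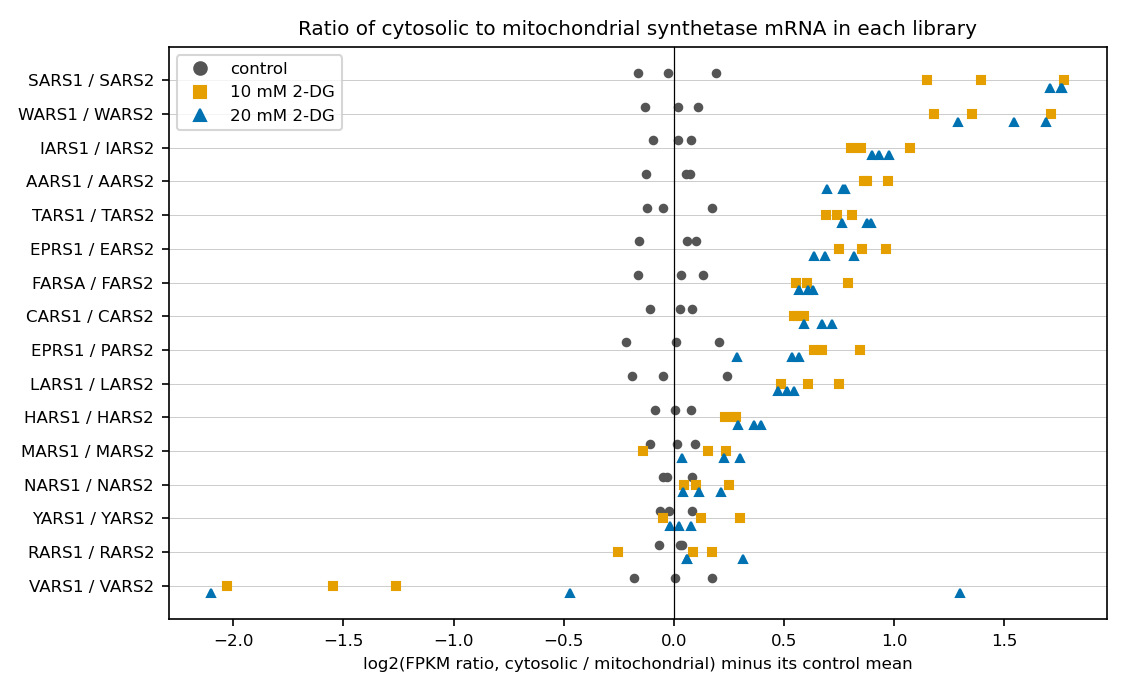
Log2 ratio of cytosolic to mitochondrial FPKM for the 16 pairs, minus the mean ratio of the 3 control libraries (x axis), with 1 point per library; grey circles are control, orange squares 10 mM and blue triangles 20 mM 2-DG. Treated libraries lie right of the controls without overlap in 11 pairs, most of all for SARS1 to SARS2 (1.59) and WARS1 to WARS2 (1.46). On log2(FPKM + 1) these values were 1.32 and 1.39, and SARS2 rests on few reads (69 to 133 per library).

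Among the cytosolic genes, 7 encode enzymes of the multi-synthetase complex, an assembly held together by AIMP1, AIMP2 and EEF1E1. At 20 mM 2-DG 3 of the 7 were called higher (EPRS1, IARS1 and MARS1), 1 lower (QARS1) and 3 were not called, with a median log2 fold change of 0.22 (15.4% of all genes were higher and 21.6% lower). Of the 12 cytosolic genes outside the complex, 8 were higher and 1 was lower, with a median of 0.43. The difference between these groups was not tested. Their summed levels were 229 ± 3.50 and 259 ± 2.20 FPKM (SD, n = 3) in the complex and 444 ± 8.69 and 689 ± 11.01 FPKM (SD, n = 3) outside it, for control and 20 mM. The scaffolds AIMP1, AIMP2 and EEF1E1 had 0 of 3 calls at either dose, with log2 fold changes between -0.07 and 0.17.

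By the fold of the catalytic domain, class I held 10 cytosolic genes (6 higher, 1 lower at 20 mM 2-DG, median 0.40) and class II 9 (5 higher, 1 lower, median 0.27). Among the mitochondrial genes, 1 of 9 was lower in class I (median -0.16) and 4 of 7 in class II (median -0.28). The classes overlapped in their values, and these counts too stand beside 15.4% of all genes higher and 21.6% lower.

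TARS3 is a further cytosolic threonine enzyme that was not among the 35. On log2(FPKM + 1) it was higher by 0.33 and 0.32 at 10 mM and 20 mM 2-DG (adjusted p = 0.00387 and 0.00354 in limma's test). Its means were 0.557 FPKM in the control, 0.955 FPKM at 10 mM and 0.937 FPKM at 20 mM. The ratios to the control mean were 1.71 and 1.68, so the pseudocount understates this change.

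The synthetases were set beside genes of the ATF4 program and factors of translation. Of 24 genes of the ATF4 program, 20 were called higher at 10 mM and 22 at 20 mM 2-DG and 0 lower, with medians of 0.90 and 0.96. Of all genes, 12.1% were called higher and 17.5% lower at 10 mM, and 15.4% and 21.6% at 20 mM. The list was chosen with earlier results of these data known, so its counts are not a test. ATF4 itself was higher by 0.64 and 0.65, and XPOT, which exports tRNA from the nucleus, by 1.01 and 1.06, close to the values of SARS1 and GARS1. Of 5 cytosolic elongation factors tested, 3 were higher at 20 mM and 1 lower (EIF5A). EEF2, which moves the ribosome along the mRNA, was higher by 0.55, and EEF1G was listed at 0 in all libraries. Of 14 initiation factors, 5 were higher and 3 lower.

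On the mitochondrial side, 0 of 10 translation factors were higher and 3 were lower at 20 mM 2-DG, namely TUFM (-0.26), GFM1 (-0.33) and GFM2 (-0.35), which serve elongation and ribosome recycling. The enzymes that make glutaminyl-tRNA by amidation and formylate the initiator tRNA (QRSL1, GATB, GATC and MTFMT) had 0 of 4 calls at 20 mM and 1 at 10 mM (GATC, 0.28). All these counts stand beside the 15.4% and 21.6% of all genes called at 20 mM.

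In the control, the level per length of the cytosolic genes ran from 7.08 FPKM (LARS1) to 72.6 FPKM (SARS1), and that of the mitochondrial genes from 0.0480 FPKM (VARS2) to 35.6 FPKM (IARS2). SARS1 and TARS1, at 72.6 ± 3.41 and 72.3 ± 4.23 FPKM (SD, n = 3), did not differ beyond their spread, nor did QARS1, FARSA and VARS1 at 63.9 ± 2.32, 63.1 ± 3.23 and 61.6 ± 3.03 FPKM (SD, n = 3). At 20 mM 2-DG SARS1 was at 161 ± 5.99 FPKM (SD, n = 3), with TARS1 and WARS1 next at 104 ± 1.96 and 102 ± 1.45 FPKM (SD, n = 3). The order depends on the gene lengths behind the FPKM values. The length that gave whole reads was 17366 bases for GARS1, whose exons cover 4152 bases in GENCODE 29, and GARS1 had 11263 to 12253 reads in the control libraries, more than SARS1 with 9448 to 10450. Ratios of FPKM within a gene do not depend on its length. Log2 fold changes on log2(FPKM + 1) do at low FPKM, where a longer length shrinks them.

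Across 15 alternative fits, which changed the scaling, pseudocount, filter or model or left out 1 library, the cytosolic calls were the steadier. At 20 mM 2-DG 10 of the 11 calls of higher cytosolic genes held in all 15, the exception being NARS1, and of the 2 lower calls FARSB held. Of the mitochondrial calls at 20 mM, YARS2, HARS2, IARS2 and TARS2 held, while FARS2 and SARS2 did not. At 10 mM FARS2, HARS2 and IARS2 held, whereas the YARS2 call was made in 6 of the 15, EARS2 in 5, LARS2 in 6 and TARS2 in 3.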

How the data were processed

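Total RNA of 9 MDA-MB-231 libraries (3 each with 0, 10 and 20 mM 2-DG for 24 h) was extracted with a Qiagen kit and prepared with a SMARTER mRNA-Seq kit, per the labels. The authors deposited FPKM values, one file per library. The submitters' processing notes name the build GRCh38 (hg38), and the aligner, counting tool, strand setting and annotation release are not given in the sources used here. Whole reads were recovered from the FPKM by finding library totals and gene lengths that make all 9 values whole, which was possible for 32806 of 32806 genes above 0. They are not the authors' counts.

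The test covered 16572 genes, each with 10 or more reads, scaled to the median total, in 3 or more libraries and with a sum of at least 15. limma 3.58.1 (R 4.3.3) was fitted to log2(FPKM + 1) with a trend and all 9 libraries, with Benjamini-Hochberg adjustment over all genes tested. The pseudocount of 1 understates changes of genes at low FPKM. The study's own thresholds (unadjusted p under 0.05, absolute log2 fold change over 1) were applied to these limma results as an alternative. The study's own test, DESeq2, was not run, so calls by these thresholds are not the study's measure. The fit was also run on simulated data with the same spread setting in every group. The libraries here spread unequally between groups, so that run does not show how the fit handles such a difference. Pairs used exact permutation tests (scipy 1.17.1).

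The members and gene lists were chosen with earlier results of these data known. Values by library are given for the 8 cytosolic and 5 mitochondrial genes with the largest called change at 20 mM, for genes called against most of their set, for the cytosolic gene with the smallest change, and for HARS1 and HARS2; AARS2 and VARS2 were added after their values were seen. Promoters came from RefSeq (GRCh38.p14), gene models from GENCODE 29. Protein sequences were not used here. Some further genes of the family are not reported here. Replicates had Pearson correlations of log2(FPKM + 1) from 0.989 to 0.996, and no 2 libraries were taken for one. The correlations were lowest within 10 mM 2-DG (0.989 to 0.994) and highest within 20 mM (0.996). The fit nevertheless used a shared estimate of each gene's spread for all groups, so the SEs do not show this difference.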

Additional observations from a re-analysis of the deposited data

How the results depend on the processing

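With 3 libraries a dose, small changes lie near the threshold, and the counts of the mitochondrial set moved more than those of the cytosolic set. Leaving out 1 library in turn gave 11 to 12 and 10 to 12 higher cytosolic genes at 10 mM and 20 mM 2-DG, and 1 to 2 lower ones at each dose. The mitochondrial counts ranged from 0 to 2 higher and 3 to 5 lower at 10 mM, and from 1 to 3 higher and 3 to 5 lower at 20 mM. At 10 mM 1 cytosolic gene was lower without control replicate 1, control replicate 2 or 10 mM replicate 3, and at 20 mM without control replicate 1, 20 mM replicate 1 or 20 mM replicate 3. In the mitochondrial set at 10 mM, 0 were higher without any one of the 3 controls, 10 mM replicate 2, 20 mM replicate 1 or 20 mM replicate 3, and 2 without 10 mM replicate 1. There 3 were lower without control replicate 1 or 2, 10 mM replicate 2 or 3, or any 20 mM library. At 20 mM, 3 mitochondrial genes were higher without 10 mM replicate 1 and 2 without 10 mM replicate 2, and 3 were lower without 20 mM replicate 3. Under the study's thresholds 3 cytosolic genes were higher at each dose and 0 lower, with 0 mitochondrial genes in either direction. Median-ratio scaling left 1 lower cytosolic gene and gave 2 higher mitochondrial genes at each dose. At 10 mM the higher mitochondrial count was 0 without a filter and 2 with at least 1 FPKM in 3 libraries, and at 20 mM it was 2 with limma-voom on the recovered reads. The labels do not say whether the replicate numbers pair the libraries. Correlations of same-numbered deviations ran from -0.41 to 0.29, and without those of differently numbered libraries they cannot decide it. With the numbers as a replicate block, 3 mitochondrial genes were lower at 10 mM. The causes were not tested. The spread of the set median between libraries of a group was 0.040 (cytosolic) and 0.043 (mitochondrial, SD on the log2 scale). By more than this, the cytosolic median at 20 mM moved to 0.40 with median-ratio scaling, and the mitochondrial one to -0.23 with a pseudocount of 0.1 and to -0.23 with limma-voom. Leaving out 1 library gave 0.32 to 0.39 for the cytosolic median at 10 mM and -0.18 to -0.11 for the mitochondrial one at 20 mM. No call changed sign, and with log2(FPKM + 1) 12 pairs in place of 11 reached an exact permutation p under 0.05. Restricted to 20 mM, the pair ratios were higher in 15 of 16 pairs. Depth limits VARS2 (4 to 50 reads) and SARS2 (69 to 133 reads).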
